A study of Mus musculus with 6 samples.

Results

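miR-9 is a brain microRNA (miRNA) that the mouse genome encodes in 3 hairpins, Mir9-1, Mir9-2 and Mir9-3, and the reads of both of its arms are described here in the sensorimotor cortex of mice with and without a spinal cord injury. A read was counted as miR-9 when it was 18 to 26 nt long and was found on the sense strand, without mismatch, in 1 or more of these hairpins in GENCODE release M21. It was given to the 5p or the 3p arm by the side of the hairpin's midpoint on which its own midpoint lay. By this rule miR-9 holds 162 distinct read sequences, 81 in each arm, of 19995 that were given to a miRNA arm, and it makes up 2 of 1421 arms with reads. The study made 6 small RNA libraries, each from the sensorimotor cortex of an adult male C57BL/6J mouse aged 90 postnatal days. In the 3 control animals the cervical cord was exposed but not damaged, and in the 3 animals with spinal cord injury (SCI) the whole cord was cut through at the C5/6 level. Both surgeries were done under isoflurane, and cortex was taken 7 days later. Samples were collected individually, per the labels' protocols, and p-values measure the spread between these 6 libraries.

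Hairpin RNAs are cut by Drosha and then Dicer into a duplex of a 5p and a 3p strand, and the strand held by an Argonaute protein finds its targets mainly through the seed, bases 2 to 8 from its 5' end. The first base of a read therefore sets the seed, and reads of the same arm that differ at their ends are called isomiRs. miR-9 is made by neural progenitors, neurons and astrocytes, is known for its part in progenitor proliferation and neuronal differentiation, and is unusual in that both of its arms are abundant in brain: miR-9-5p represses the neuronal gene repressor REST and the nuclear receptor TLX, while miR-9-3p, also written miR-9*, represses CoREST and, with miR-124, the chromatin subunit BAF53a.

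The mature sequences of both arms are shown first because every comparison rests on where reads start and end along them. They are those of RefSeq on GRCm38.p6, with the seed in capitals:
miR-9-5p: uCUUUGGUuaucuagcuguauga
miR-9-3p: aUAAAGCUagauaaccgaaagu
The seed of miR-9-5p was found in 0 other mature names among the 1679 of the RefSeq table, and so was that of miR-9-3p. The 3 hairpins are printed next, with both mature arms in capitals, because the mature sequences are the same in all 3 and only the lower-case flanks and loops tell the genes apart. Mir9-1 (ENSMUSG00000106493.1) lies at chr3:88215598-88215686 of GRCm38 on the plus strand, in an intron of the lincRNA gene Gm3764, and the small gene Gm25641 is annotated across it on the minus strand. Mir9-2 (ENSMUSG00000065424.2) lies at chr13:83738814-83738885 on the plus strand, within an exon of the lincRNA gene C130071C03Rik. Mir9-3 (ENSMUSG00000093238.1) lies at chr7:79505264-79505353 on the plus strand, in an intron of its host gene Mir9-3hg.
Mir9-1: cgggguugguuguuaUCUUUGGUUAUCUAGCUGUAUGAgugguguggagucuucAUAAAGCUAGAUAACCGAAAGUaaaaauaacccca
Mir9-2: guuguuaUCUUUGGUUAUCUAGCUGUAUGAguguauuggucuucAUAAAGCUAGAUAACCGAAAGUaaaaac
Mir9-3: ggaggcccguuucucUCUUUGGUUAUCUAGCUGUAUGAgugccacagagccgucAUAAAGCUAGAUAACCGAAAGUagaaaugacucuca
After the mature 3p sequence Mir9-1 and Mir9-2 continue with a run of A, whereas Mir9-3 continues with AG, so at this end only a read that runs at least 2 bases past the mature sequence can separate them. The most abundant read of each arm was found in 4 genes among all GENCODE M21 transcripts, the 3 hairpins and C130071C03Rik, which contains Mir9-2.

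The libraries held 10585062 to 24480988 reads, of which 72.9% to 78.9% were counted in miRNA arms. Control replicate 1 stood apart from the other control libraries: over the miRNA arms with at least 100 reads in a pair, the chi-square per degree of freedom was 812 against control replicate 2 and 992 against control replicate 3, whereas it was 207 between those 2 and 162 to 198 between SCI libraries. Markers of other cell types were read from 9 fixed lists. The 4 neuronal markers summed to 99799 to 112666 CPM (reads relative to the library's total) in control and 95448 to 101052 in SCI. Of the other lists, the summed levels of control and SCI did not overlap for oligodendrocyte markers (3 of 3 detected, 6436 to 8764 CPM in control, 5639 to 6416 in SCI) and for myeloid and lymphoid markers (4 of 4 detected, 1372 to 1614 and 1155 to 1343), with 0 of these markers at 0 reads. Singly, all 3 oligodendrocyte markers overlapped, and of the myeloid and lymphoid ones only miR-150-5p did not. In lists whose sums overlapped, single members could still lie apart. Lower in SCI were the neuronal miR-128-3p and miR-129-5p, the endothelial and mural miR-143-3p and miR-145a-5p, and the epithelial miR-200a-3p, miR-141-3p and miR-429-3p. Higher were miR-449a-5p, listed with the epithelial ones, and the muscle miR-206-3p. All other members of these lists overlapped. Of the 690 miRNA arms tested, 11% lay lower in SCI without overlap and 8.99% higher. The part of these markers in the miR-9 values was not tested.

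miR-9-5p and miR-9-3p were the fourth and the fifth most abundant of the 690 miRNA arms that passed the low-count filter, behind miR-29a-3p, miR-128-3p and miR-26a-5p. Levels here and above are CPM scaled by TMM, which sets each library's counts against a trimmed mean of all arms. miR-9-5p lay at 85291, 82487 and 72715 CPM in control replicates 1 to 3 and at 65639, 63626 and 61016 in SCI replicates 1 to 3. All 3 SCI libraries were below all 3 controls, as they were for 11% of the arms tested. The means were 80164 ± 6602 CPM in control and 63427 ± 2318 in SCI (SD, n = 3 each). The log2 fold change was -0.34 ± 0.10 (SE), 1.26-fold lower in SCI, and it did not pass adjustment over all arms (edgeR quasi-likelihood test, adjusted p = 0.256). The exact permutation test of this difference gave p = 0.1, two-sided, the smallest that 3 against 3 libraries allow. In bulk tissue, fewer cells of a type and less RNA per cell cannot be told apart.

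miR-9-3p lay at 61106, 47573 and 50107 CPM in control and at 50322, 48390 and 44497 in SCI. The groups overlapped, and the highest value was that of control replicate 1. The means were 52929 ± 7194 and 47736 ± 2967 CPM (SD, n = 3 each), and the log2 fold change was -0.15 ± 0.12 (edgeR adjusted p = 0.615). Without control replicate 1 it was -0.04 (adjusted p = 0.859). The exact permutation p was 0.5, two-sided, and after adjustment over the 2 arms it was 0.5 for miR-9-3p and 0.2 for miR-9-5p. Of the 690 arms, 0% passed an adjusted p under 0.05 in either direction, and 97 had an unadjusted p under 0.05, while DESeq2 passed 11. Total count scaling in place of TMM moved the median log2 fold change of all arms by 0.12, from -0.02 to 0.09. Both miR-9 arms kept their sign under it, at -0.22 and -0.03, and relative to the median of all arms they were at -0.31 and -0.12 (-0.32 and -0.13 under TMM).

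**Figure D1:**
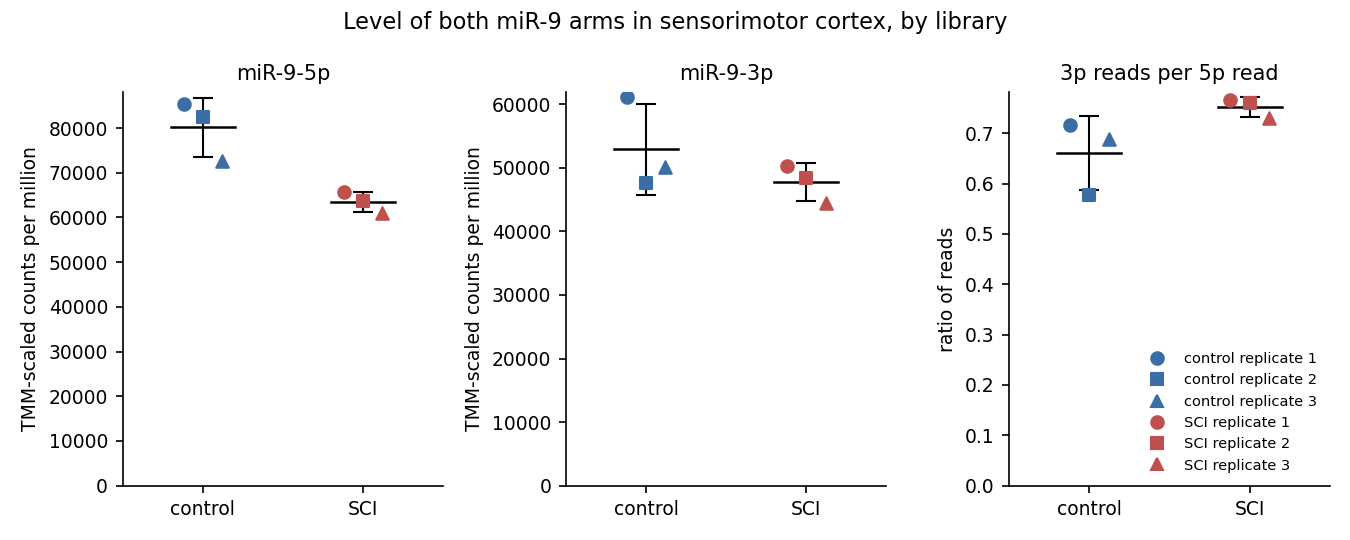
Level of miR-9-5p and miR-9-3p (TMM-scaled CPM) and the number of 3p reads per 5p read in each library, with the group mean as a line and the SD as a bar (n = 3). The 3 SCI libraries lie between 61016 and 65639 for miR-9-5p, below all controls, whereas the groups overlap for miR-9-3p.

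As a share of all miRNA arm reads, both arms together made up 13.6%, 12.6% and 12.1% in control and 11.8%, 11.6% and 11.3% in SCI. The SCI shares were all below the control shares, mainly through the 5p arm: miR-9-5p took 7.92%, 7.98% and 7.18% in control and 6.67%, 6.59% and 6.54% in SCI. The 3p arm took 4.60% to 5.68% in control and 4.77% to 5.11% in SCI, which overlapped.

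Both arms are counted in the same library, so the scaling cancels in their ratio. There were 0.716, 0.577 and 0.689 reads of 3p per 5p read in control and 0.767, 0.761 and 0.729 in SCI. The SCI ratios were all above the control ratios, as they were for 7.91% of the 278 arm pairs tested. The mean was 0.661 ± 0.074 in control and 0.752 ± 0.020 in SCI (SD, n = 3 each), the lowest library being control replicate 2. The log2 difference of 0.19 ± 0.17 did not pass (limma, adjusted p = 0.645), nor did that of any other pair (0% of pairs, with 29 at an unadjusted p under 0.05).

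Most miR-9-5p reads began at the RefSeq first base. Start 0 is the most common first base of an arm here, and a start at +1 lies 1 base further in. In miR-9-5p, 94.3% to 94.6% of control reads and 94.8% to 95.0% of SCI reads began at 0, and most of the others at +1. The miR-9-3p arm was split between 2 first bases. Start 0 held 58.0%, 60.0% and 59.8% of its reads in control and 57.3%, 59.2% and 58.4% in SCI, and start +1 held 41.1%, 39.2% and 39.6% in control and 42.3%, 40.6% and 41.4% in SCI. The groups overlapped at both starts, and the ratio of +1 to 0 lay between 0.654 and 0.738 over all 6 libraries. The log2 odds of a start at +1 differed by 0.09 ± 0.09 between the groups (limma, adjusted p = 0.568), where 20.3% of 316 arms with a mean of at least 500 reads passed with lower odds in SCI.

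The 2 main starts of miR-9-3p carry different seeds. The leading read of each is shown, as the DNA letters of the deposited files, with bases 2 to 8 of the read in capitals, beside the read that starts at +2, on which a later comparison turns:
miR-9-3p start 0: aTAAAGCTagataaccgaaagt
miR-9-3p start +1: tAAAGCTAgataaccgaaagt
miR-9-3p start +2: aAAGCTAGataaccgaaagt
The seeds of the +1 and +2 reads were also found in 0 other mature names of the RefSeq table. The start 0 read made up 47.8% of the arm and stood at 29846, 23098 and 24241 CPM in control and at 23018, 22960 and 20903 in SCI. The start +1 read made up 21.7% of the arm and stood at 13792, 10083 and 10445 CPM in control and at 11303, 10331 and 9769 in SCI. The SCI values of the start 0 read lay just below the control values, and those of the start +1 read overlapped them. How many of all tested reads lie lower in SCI without overlap was not counted. In the edgeR test over 4849 read sequences the log2 fold change was -0.16 ± 0.15 for the start 0 read (adjusted p = 0.641) and -0.09 ± 0.16 for the start +1 read (adjusted p = 0.840). Without control replicate 1, the highest library for both, the changes were -0.002 (adjusted p = 0.995) and 0.11 (adjusted p = 0.587, edgeR). The 22-nt read of start +1, which ends 1 base later, made up another 15.0% of the arm and stood at 7912 ± 1568 and 7134 ± 488 CPM (SD, n = 3 each; log2 fold change -0.11 ± 0.17, edgeR adjusted p = 0.809, and 0.11 without control replicate 1).

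miR-9-3p reads that start at +2 were few, and they were lower in every SCI library. They made up 0.788%, 0.628% and 0.536% of the arm in control replicates 1 to 3 and 0.241%, 0.172% and 0.141% in SCI replicates 1 to 3. The highest SCI share was less than any control share. In level they stood at 481, 299 and 269 CPM in control and at 121, 83.2 and 62.8 in SCI, from 19389 reads in all. In share and in level, all SCI libraries were below all controls. How many arms do so in the level of their +2 reads was not counted, but in the odds of a +2 start 28.2% of the 316 arms did. The log2 odds of a +2 start in miR-9-3p differed by -1.84 ± 0.30, 3.58-fold lower in SCI. This did not pass over the 316 arms (limma, adjusted p = 0.110), of which 0% passed and 63 had an unadjusted p under 0.05. Over the 169 arms with a mean of at least 5000 reads it passed (limma, adjusted p = 0.0277), as did 13% of those arms with lower odds. It was the second lowest of these 169 and the ninth lowest of the 316. The 6 lowest of the 316 had a mean of 1.0 to 6.2 reads per library at +2. This start was singled out after its values were seen.

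Tested as single read sequences, 5 of the 8 miR-9-3p sequences that start at +2 passed the low-count filter, and all 5 fell. These 5 share their first base, differ only at the 3' end and are not independent of each other. The 20-nt read shown above stood at 244, 161 and 141 CPM in control and at 63.0, 45.0 and 35.3 in SCI, and fell by 1.90 on the log2 scale (SE 0.27, edgeR adjusted p = 0.00622). The 21-nt read stood at 203, 108 and 101 CPM in control and at 45.4, 31.1 and 20.2 in SCI, and fell by 2.07 (SE 0.34, adjusted p = 0.0104). In both, control replicate 1 was highest, and each SCI library was below each control, which was not counted over all read sequences. The 19-nt, 22-nt and 18-nt reads fell as well, with log2 fold changes of -1.70, -1.67 and -1.91 (adjusted p of 0.00622, 0.0263 and 0.0148), and each was below 16 CPM in every library. DESeq2 passed the same 5. The 3 untested reads of this start held 50, 24 and 1 reads in total. Without control replicate 1 all 5 passed, at -1.28 to -1.99. Without SCI replicate 3 the changes of the 5 were -1.55 to -1.84, but 0 passed, and 0 of all read sequences passed either (502 at an unadjusted p under 0.05). Without SCI replicate 2, 3 of the 5 passed.

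The 5' ends of other miRNAs differed between the groups as well. Over 4849 read sequences of all arms, 2.66% passed with lower and 0.371% with higher levels in SCI. Of the reads of all other arms that start at +2, 21 of 299 fell, or 7.02%, with a median log2 fold change of -0.34. The median of the 5 miR-9-3p reads at +2 was -1.90. Of the reads of other arms that start at +1, 66 of 859 fell (median -0.24), and of those at +3, 18 of 144 (median -0.66). Pooled over 314 other arms, the share of reads starting at +1 was 2.19% to 2.41% in control and 1.64% to 1.77% in SCI. At +2 it was 0.307% to 0.335% and 0.278% to 0.299%, and at +3 it was 0.092% to 0.113% and 0.054% to 0.067%. At each of these starts the groups did not overlap, and the part of this series-wide difference in the miR-9-3p values was not tested. The 5p arm of miR-9 had 0.539% to 0.567% of its reads at +2 in control and 0.481% to 0.540% in SCI, which overlapped. Its +2 odds differed by -0.11 ± 0.20 (limma adjusted p = 0.771), and 0 of its 6 tested reads at +2 passed, with a median of -0.38. At +3 the miR-9-5p share was 0.066% to 0.081% in control and 0.053% to 0.054% in SCI, without overlap, and 0 of 5 tested reads passed. miR-9-3p at +3 was also lower without overlap, at 0.017% to 0.020% and 0.0089% to 0.014%. How many single arms lie apart at +3 was not counted.

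**Figure D2:**
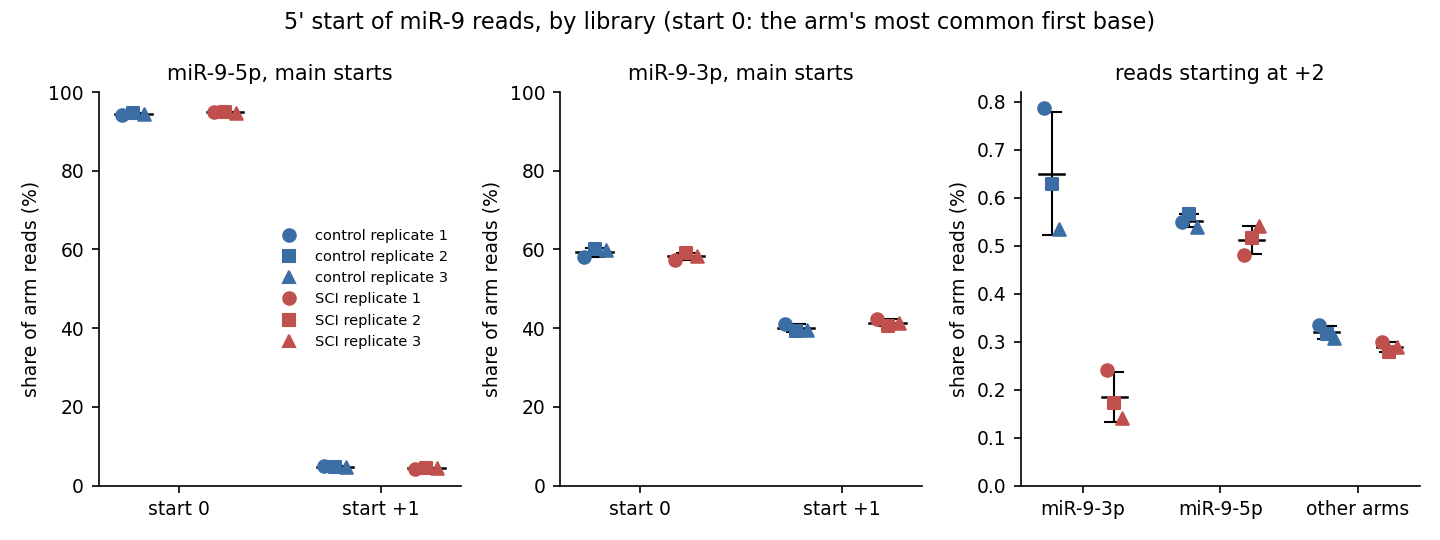
Share of each arm's reads (percent) by the first base of the read, in each library, with group mean and SD (n = 3). miR-9-3p is split between starts 0 and +1 alike in both groups, and the right panel shows its +2 reads at 0.141% to 0.241% in SCI against 0.536% to 0.788% in control.

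Starts other than 0 were also summed. In miR-9-5p they held 5.74%, 5.41% and 5.50% of the reads in control and 5.02%, 5.07% and 5.22% in SCI. The groups did not overlap, as in 38.6% of the 316 arms with lower odds in SCI. The log2 odds difference was -0.13 ± 0.07 (limma adjusted p = 0.273), near the median of -0.14 of all 316 arms, of which 17.1% passed with lower odds. In miR-9-3p, where start +1 dominates, the groups overlapped at 40.7% ± 1.11 and 41.7% ± 0.914 (SD, n = 3 each; difference 0.06 ± 0.08, adjusted p = 0.651).

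Of the 162 miR-9 sequences, 75 passed the low-count filter, 38 of the 5p arm and 37 of the 3p arm, and these held nearly all reads: the most abundant untested one had 50 reads over the 6 libraries. In miR-9-5p, 0 passed in either direction and 15 of its 38 tested reads had an unadjusted p under 0.05 (edgeR), against 15.8% of all 4849. A log2 fold change below 0 was found in 31 of the 38, against 50.3% of all 4849, with a median of -0.33. These reads are isomiRs of 1 arm, whose own level was lower in SCI, and are not independent of each other. In miR-9-3p, 6 of the 37 tested reads fell and 0 rose, against 2.66% and 0.371% of all 4849. Of these 6, 5 are the reads at +2, which are not independent of each other. An unadjusted p under 0.05 was found in 9 of the 37 (edgeR), and 21 were below 0, with a median of -0.09. The median over all 4849 sequences was 0.00. The sixth read that fell, chosen after its values were seen, starts at +5 and was rare:
miR-9-3p start +5: gCTAGATAaccgaaagta
It had 24, 12 and 26 reads in control and 7, 5 and 6 in SCI, and fell by 1.74 on the log2 scale (SE 0.39, edgeR adjusted p = 0.0376). It did not pass with DESeq2 (adjusted p = 0.0556), nor in any of the 6 edgeR fits that left out 1 library (adjusted p of 0.0703 to 0.23).

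**Figure D3:**
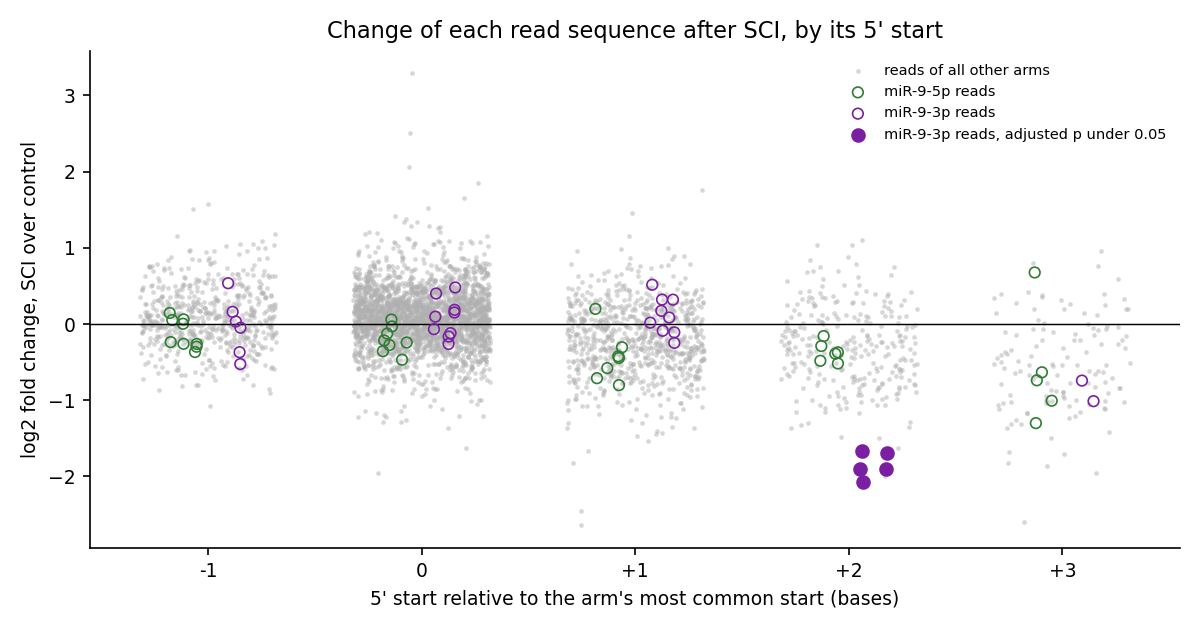
Log2 fold change (SCI over control) of tested read sequences that start between -1 and +3, by start. miR-9-5p is in green, miR-9-3p in purple and reads of all other arms that did not pass in grey (spread sideways at random). Reads of other arms that passed are not drawn: 2 lower and 13 higher at 0, 66 lower and 2 higher at +1, 21 lower and 1 higher at +2, and 18 lower at +3. The 5 miR-9-3p reads at +2, filled because their adjusted p was under 0.05, lie between -2.07 and -1.67, and miR-9 reads at the other starts shown did not pass.

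The leading reads of miR-9-5p differ at their 3' ends only, so they share a seed. They are shown, with bases 2 to 8 in capitals, because they hold most of the arm:
miR-9-5p 23 nt: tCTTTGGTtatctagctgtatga
miR-9-5p 22 nt: tCTTTGGTtatctagctgtatg
miR-9-5p 21 nt: tCTTTGGTtatctagctgtat
miR-9-5p 20 nt: tCTTTGGTtatctagctgta
They made up 39.3%, 26.9%, 23.8% and 2.72% of the arm, in the order shown. The 23-nt read stood at 33899, 30589 and 28838 CPM in control and at 25644, 25547 and 23517 in SCI (log2 fold change -0.28 ± 0.13, edgeR adjusted p = 0.329, and -0.17 without control replicate 1). The 22-nt read stood at 23026, 23728 and 19548 CPM in control and at 16548, 17047 and 16498 in SCI (-0.36 ± 0.13, edgeR adjusted p = 0.211). In both, every SCI library was below every control, and how many of the 4849 tested reads do so was not counted. The 21-nt read overlapped at 18844 ± 1939 and 15434 ± 1214 CPM (SD, n = 3 each), with a log2 fold change of -0.24 ± 0.14, near that of the 23-nt read. The most abundant read with another start began at +1, ended at the same base as the 23-nt read and stood at 2397 ± 228 and 1879 ± 23.0 CPM (-0.30 ± 0.15, edgeR adjusted p = 0.350, and -0.185 without control replicate 1).

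Mean read length did not differ beyond the spread in either arm. It was 22.01 ± 0.03 nt in control for miR-9-5p (SD, n = 3; SCI minus control -0.01 ± 0.03 nt, limma adjusted p = 0.953), and 21.69 ± 0.04 nt in control and 21.68 ± 0.004 nt in SCI for miR-9-3p (SD, n = 3 each; difference -0.01 ± 0.03 nt, adjusted p = 0.943), and 0% of 316 arms passed, with 19 at an unadjusted p under 0.05. Counted from the first base of start 0, miR-9-5p reads ended mostly at base 21 (23.5% to 26.2%), base 22 (26.2% to 30.0%) or base 23 (40.3% to 43.5%). miR-9-3p reads ended mostly at base 22 (68.4% to 71.9%) or base 23 (18.9% to 21.5%). Shortened 3' ends set control replicate 1 apart: 3.62% of its miR-9-3p reads ended at base 21, against 6.31% to 6.50% in the other 5 libraries, and 0.922% at base 20, against 1.84% to 1.89%.

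Reads of miR-9-3p that end at base 24 made up 1.35%, 1.23% and 1.32% of the arm in control and 2.10%, 1.65% and 1.96% in SCI, without overlap. Most of them are 1 read that runs 2 bases past the RefSeq 3' end. It is shown beside the read that the Mir9-3 hairpin gives at the same length, with bases 2 to 8 in capitals:
Mir9-1 or Mir9-2: tAAAGCTAgataaccgaaagtaa
Mir9-3: tAAAGCTAgataaccgaaagtag
The former stood at 620, 445 and 509 CPM in control and at 851, 635 and 704 in SCI. Each SCI library was above each control. The log2 fold change was 0.52 ± 0.19 and did not pass (edgeR adjusted p = 0.202), whereas without control replicate 1 it was 0.70 (adjusted p = 0.0215). The last A of this read is encoded in Mir9-1 and Mir9-2, and an A added to the 22-nt read of start +1 gives the same letters, so the sources cannot be told apart. This read was chosen after its values were seen. The miR-9-3p shares at base 22 did not overlap either, lower in SCI. How often ends or single reads of other arms lie apart in this way was not counted.

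**Figure D4:**
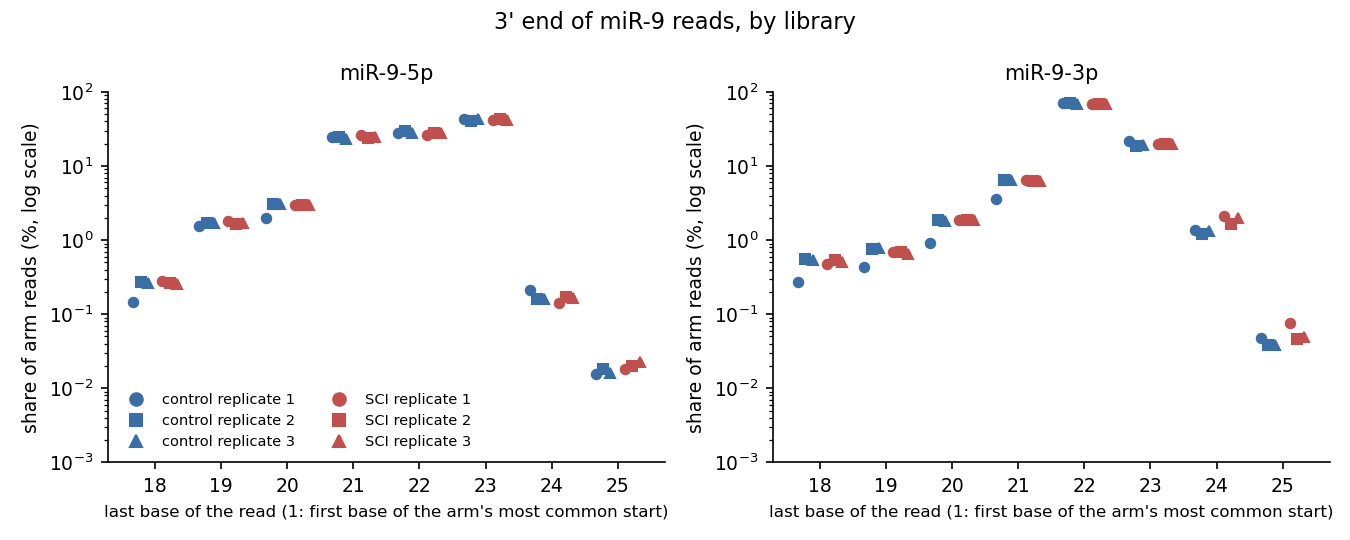
Share of each arm's reads (percent, log scale) by the last base of the read, counted from the first base of start 0, in each of the 6 libraries. Control replicate 1 (blue circle) lies below the others at the short ends of both arms, and the SCI libraries lie above the controls at base 24 of miR-9-3p, at 1.65% to 2.10% against 1.23% to 1.35%.

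Reads that run on with bases not found in the hairpin were counted separately. An A added at the RefSeq 3' end of miR-9-3p gives the same letters as the hairpins, so it was not counted as added. Shares of any added base or of added A therefore cannot be compared between the arms. Terminal transferases add U or A to the 3' end of mature miRNAs, and such reads made up 8.38% to 9.17% of miR-9-5p in control and 8.93% to 9.96% in SCI, and 5.63% to 6.46% and 4.83% to 5.28% of miR-9-3p. Added U made up 6.12%, 5.93% and 5.77% of miR-9-5p reads in control and 7.03%, 6.21% and 7.21% in SCI. All SCI shares were above all control shares, as in 8.23% of 316 arms. In miR-9-3p, added U made up 5.65%, 4.80% and 4.91% in control and 4.08%, 4.47% and 3.97% in SCI. Here all SCI shares were below all control shares, as in 4.43% of arms. Neither passed: the log2 odds differed by 0.21 ± 0.12 in miR-9-5p and by -0.31 ± 0.13 in miR-9-3p (limma adjusted p = 0.658 for each). The odds of any added base differed by 0.16 ± 0.10 in miR-9-5p (adjusted p = 0.448) and by -0.26 ± 0.11 in miR-9-3p (adjusted p = 0.334). Of the 316 arms, 0% passed for all added bases, 0% for U and 0% for A, with 45, 20 and 58 at an unadjusted p under 0.05 (limma). Pooled over the other arms, added U overlapped at 4.45% to 5.01% in control and 4.46% to 4.61% in SCI.

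The most abundant read with an added base is shown for each arm, with the added base, a U read as T, in capitals:
miR-9-5p plus U: tctttggttatctagctgtatgT
miR-9-3p plus U: taaagctagataaccgaaagtaT
The miR-9-5p read had 362252 reads in all. Set against the same read without the added base, it stood at 19.7%, 19.0% and 19.6% in control and at 25.8%, 21.4% and 24.8% in SCI. The miR-9-3p read had 116778 reads in all and stood at 20.2%, 18.5% and 18.9% in control and at 14.9%, 15.8% and 14.0% in SCI. These percentages did not overlap between the groups, higher in SCI for the miR-9-5p read and lower for the miR-9-3p read. For the most abundant read with added bases of each of 316 arms they lay higher in SCI without overlap in 15.5% and lower in 5.06%. In level the miR-9-5p read overlapped, at 4530, 4502 and 3823 CPM in control and 4267, 3640 and 4095 in SCI, while its read without the added base was the 22-nt read above, lower in every SCI library. The miR-9-3p read stood at 1954, 1237 and 1393 CPM in control and 1126, 1145 and 926 in SCI, without overlap. Neither read has a test of its own, and how many such reads differ in level without overlap was not counted. Added A was counted in 0.299% to 0.348% of miR-9-3p reads over all libraries and in 1.90% to 2.36% of miR-9-5p reads. It overlapped between the groups in both arms (limma adjusted p = 0.946 and 0.959). The miR-9-3p value leaves out any added A that the hairpins also encode, so it does not show that this arm gains A less often. Pooled over the other arms, added A did not overlap, at 4.97% to 5.24% in control and 5.41% to 5.98% in SCI.

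**Figure D5:**
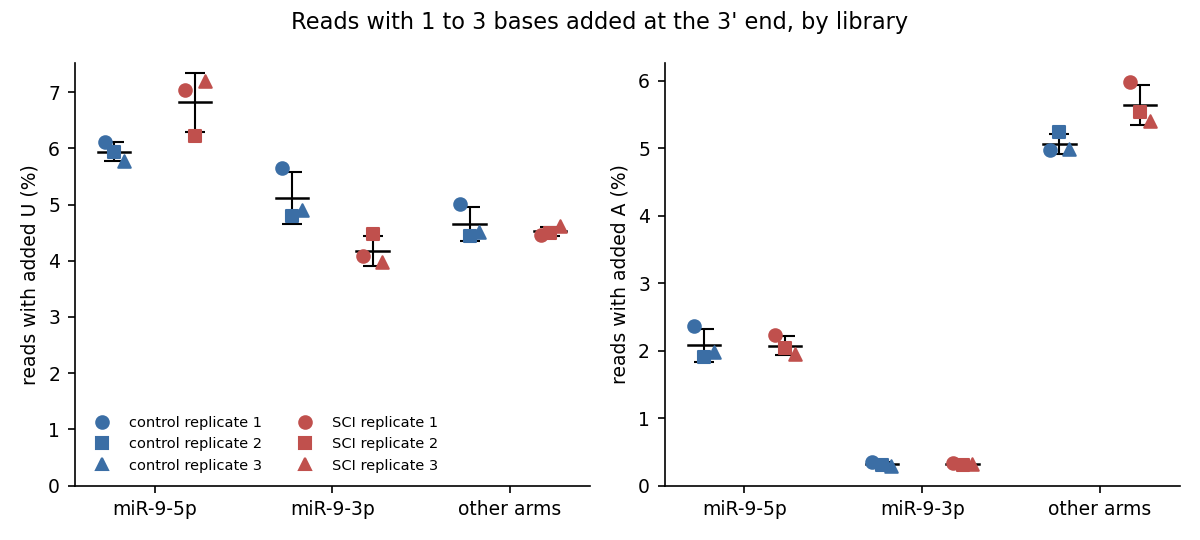
Share of reads (percent) whose 1 to 3 added 3' bases were all U (left) or all A (right), in each library, with group mean and SD (n = 3), for both miR-9 arms and all other arms pooled. For added U the SCI libraries lie above the controls in miR-9-5p and below them in miR-9-3p, and 0% of 316 arms passed the test.

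Nearly all miR-9 reads fit all 3 hairpins, so the genes could be told apart only at the edges. Reads found in all 3 made up 99.9% of miR-9-5p and 97.8% to 98.7% of miR-9-3p. The hairpin of Mir9-3 alone held 5256 reads of the 3p arm, at 81.7, 56.3 and 56.4 CPM in control and 56.9, 52.6 and 50.0 in SCI. The ranges overlapped and the log2 fold change was -0.29 ± 0.19 (edgeR adjusted p = 0.520), or -0.08 without control replicate 1. On its 5p arm Mir9-3 alone held 2105 reads, at 27.2, 23.0 and 21.2 CPM in control and 23.2, 23.2 and 24.6 in SCI (-0.01 ± 0.17, adjusted p = 0.972). Of 688 hairpin arms tested this way, 0% passed (edgeR, 97 at an unadjusted p under 0.05; DESeq2 passed 7). The loop of Mir9-1 gave 53 reads, all of 1 sequence, and its 5p side 2 reads. Reads of Mir9-2 alone numbered 0 under this rule. The 23-nt read of Mir9-3 shown above has the same letters as the 22-nt read of start +1 with a G added. The level of each gene's transcript was not measured by these reads.

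Reads outside the rule were few beside the 10796504 within it. Reads of 17 nt in the sense direction numbered 17766, and those of 27 to 34 nt numbered 15. Antisense to the hairpins there were 85 reads of 18 to 26 nt in all libraries. The 2 most abundant antisense reads carry the RefSeq sequences of miR-9b-3p and miR-9b-5p, which RefSeq gives as:
miR-9b-5p: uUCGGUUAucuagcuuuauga
miR-9b-3p: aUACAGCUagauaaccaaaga
They had 18 reads for miR-9b-3p and 15 for miR-9b-5p, with 1 to 5 reads per library, and the capitals again mark the seed. At this depth no comparison between the groups was made.

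By its profile over the 6 libraries, miR-9-5p was most like miR-411-3p, let-7a-1-3p/let-7c-2-3p, miR-221-3p, miR-1839-5p and miR-369-5p among 236 other arms with a mean of at least 100 CPM. Likeness is the root mean square difference of centred log2 CPM, which was 0.053 to 0.082 for these 5 and 0.248 for the median arm. miR-9-3p was most like miR-140-5p, miR-140-3p, miR-128-3p, miR-93-5p and miR-382-3p, at 0.037 to 0.059 against a median of 0.213. The arms of miR-9 differed from each other by 0.138, which placed miR-9-3p at rank 37 from miR-9-5p and miR-9-5p at rank 41 from miR-9-3p. The libraries are shared by all these arms, so the values describe them and carry no test.

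Of 20 listed miRNAs of neural progenitors and neuronal differentiation, all were tested, 8 had a log2 fold change above and 12 below 0, and 0 passed (edgeR), with 5 at an unadjusted p under 0.05. Of all 690 arms, 358 were below 0 and 97 had an unadjusted p under 0.05. The median of the 20 was -0.10, against -0.02 over all 690 arms. SCI lay below control without overlap in 4 of the 20 and above it in 1, against 11% and 8.99% of all arms. miR-124-3p, the neuronal miRNA that shares the BAF53a target with miR-9-3p, stood at 9666, 12508 and 16237 CPM in control and at 14897, 17523 and 16249 in SCI, which overlapped (0.34 ± 0.18, adjusted p = 0.438). miR-128-3p, abundant in neurons, stood at 84686 ± 6593 and 74843 ± 3219 CPM (-0.18 ± 0.10, adjusted p = 0.469), and let-7b-5p, which like miR-9 is known to repress TLX, at 4415 ± 533 and 5014 ± 657 (0.18 ± 0.14, adjusted p = 0.578). The 5 with an unadjusted p under 0.05 were the activity-induced miR-132-3p (-0.44 ± 0.13), miR-25-3p (-0.36 ± 0.15), miR-106b-5p (0.47 ± 0.15), miR-184-3p (0.46 ± 0.19) and miR-7a-5p (0.73 ± 0.24), with adjusted p of 0.256 to 0.300 (edgeR).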

How the data were processed

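The authors deposited, for each library, distinct read sequences of 17 to 34 nt with their raw counts, per the file headers. Trimming, alignment and filters are not given in the sources used here. GRCm38 is the build in the submitters' processing notes. Libraries were made with HD adapters and hold no molecular identifiers in the files, so reads are not independent molecules. Reads were matched here to GENCODE M21 hairpins (GRCm38), and arms that share their top read or at least 50% of the smaller arm's reads were merged.

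Arm and read counts were tested with edgeR 4.0.16 (quasi-likelihood, TMM, filterByExpr with a minimum count of 10, without a block), in R 4.3.3. Its SE was computed from the log2 fold change and F. Ratios of arms with a mean of at least 10 counts, and starts, lengths and added bases (1 to 3) of arms with a mean of at least 500 reads, were tested with limma 3.58.1 on log2 values with a pseudocount of 0.5. Benjamini-Hochberg adjusted p under 0.05 passed. DESeq2 1.42.0, other scalings, filters and length ranges, and leaving out each library, were alternatives. The scripts were tested on simulated data. Chi-square values between libraries lay far above sampling noise, so none was counted as a copy.

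Named were both arms, the 5 most abundant reads of each, the most abundant with another start, the most abundant of 1 hairpin only, the 5 arms most alike and, of the 20 listed miRNAs, miR-124-3p, let-7b-5p, miR-128-3p and those with p under 0.05. RefSeq mature names were matched by hairpin and sequence, and arms without one are named by hairpin. The members and lists were chosen with earlier results of these data known. Python 3.11.15, pandas 2.3.3, numpy 2.4.6, scipy 1.17.1 and matplotlib 3.10.9 were used.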

Additional observations from a re-analysis of the deposited data

How the results depend on the processing

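Both miR-9 arms were lower in SCI under each of the 18 alternatives, and neither passed in any of them: the log2 fold change of miR-9-5p lay between -0.35 and -0.22 under other scalings, tests, filters and read definitions (adjusted p 0.196 to 0.322) and between -0.41 and -0.29 with 1 library left out, and that of miR-9-3p between -0.19 and -0.03 and between -0.22 and -0.04. Of 690 arms 0 passed, but 11 did with DESeq2, 30 of 1421 without a count filter, and 0 to 7 with 1 library left out. The number of miR-9 reads that passed was 6, with DESeq2 10, and with 1 library left out 0 to 8; the +2 start odds of miR-9-3p passed (-1.84, adjusted p = 0.0277) only over arms with a mean of at least 5000 reads, an alternative added after seeing the data, and lay between -2.05 and -1.66 with 1 library left out.

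The control and SCI libraries share replicate numbers, and their deviations from the group means correlated at 0.22, -0.06 and -0.09 for numbers 1 to 3. Libraries of different numbers correlated at -0.17 to 0.25. The labels do not say whether the numbers pair the samples, and so few correlations cannot decide it. With the replicate block miR-9-5p was at -0.34 (edgeR adjusted p = 0.260), miR-9-3p at -0.14 (adjusted p = 0.573) and the 3p over 5p ratio at 0.19; 10 miR-9 reads and 0 arms passed.

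Differences near 0 changed sign with 1 library left out: mean length (-0.022 to 0.007 nt in miR-9-5p, -0.024 to 0.014 nt in miR-9-3p), the odds of added A (-0.05 to 0.11 in miR-9-5p, -0.064 to 0.052 in miR-9-3p) and the 5p reads of Mir9-3 alone (-0.09 to 0.10, and 0.11 under total count scaling). So did single reads: the 20-nt miR-9-5p read (-0.248 to 0.002), the miR-9-3p reads of start +1 with 21 nt (-0.173 to 0.11) and 22 nt (-0.22 to 0.11), of start 0 with 23 nt (-0.229 to 0.13) and of Mir9-3 alone (-0.358 to 0.026), each highest without control replicate 1, except the 20-nt read, and the loop read of Mir9-1 (-0.669 to 0.20). Of 166 alternative values of the 16 differences between groups behind these comparisons, 153 kept direction and call, and no cause of a change was tested. Arms with few reads and reads under about 16 CPM are limited by depth.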
